A study of Mus musculus with 6 samples.

Results

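The genes described here are 10 that carry out or accompany growth arrest, most of them known targets of the tumour suppressor p53: Cdkn1a, Mdm2, Ccng1, Bax, Btg2, Trp53inp1, Gadd45a, Gadd45b, Gadd45g and Sesn1. They were taken by symbol from a table of 24034 genes measured by RNA sequencing of mouse liver, and all 10 were found and passed the filter on low values (an average of at least 0.5 FPKM, met by 13250 genes). The livers came from C57BL/6 mice aged 25 weeks. The 3 wild type libraries (WT) carry the genotype label lncenc1wt/wt, and the 3 mutant libraries (HO) the label lncenc13A/3A, an allele of Lncenc1, a long non-coding RNA gene, on both copies. The series' design text calls these mice knockouts, but the sources used here do not give what the allele changes, nor the substrain, the sex or the time of day at which tissue was taken. Lncenc1 itself was not analysed here, so the genotype labels were not checked against its level. Expression is in FPKM, fragments scaled for transcript length and for library size, so levels can be compared between genes.

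The p53 protein is a transcription factor that cells keep low by degrading it, and DNA damage, nucleolar stress or other insults let it accumulate. Its targets fall into feedback genes that hold p53 down (Mdm2, Ccng1), effectors that stop the cell cycle (Cdkn1a, Btg2), effectors of cell death (Bax, Trp53inp1) and a sensor of nutrients and stress (Sesn1). The GADD45 genes encode small acidic proteins that bind cell cycle regulators and kinases of the p38 and JNK pathways, and several of these genes also respond to signals other than p53, such as cytokines, hormones and feeding. In adult liver, where most hepatocytes rest outside the cell cycle, Cdkn1a, Btg2 and the GADD45 genes are known for fast swings in their RNA.

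Promoter stretches of 6 members are shown first, because the 5 genes whose HO and WT values did not overlap fell into 3 lower and 2 higher ones, and Cdkn1a is the textbook p53 target. The sequences come from RefSeq (GRCm38.p6), which covered 9 of the members with 11 start sites, each from 250 bases before to 50 bases after the start; Trp53inp1 was not matched. Both strands were searched for the p53 decamer, the 10-base unit of which p53 binding sites are built, which reads as the same consensus on either strand. In the stretches of Mdm2, Ccng1, Bax and Cdkn1a, capitals mark this decamer.
Mdm2: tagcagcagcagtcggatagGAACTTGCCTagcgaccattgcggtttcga
Ccng1: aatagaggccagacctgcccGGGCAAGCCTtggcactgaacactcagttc
Bax: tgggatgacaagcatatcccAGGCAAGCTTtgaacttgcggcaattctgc
Cdkn1a: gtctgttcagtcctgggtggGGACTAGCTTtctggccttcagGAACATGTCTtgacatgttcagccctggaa

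These stretches lie at chr10:117710915-117710964 (minus strand), chr11:40755442-40755491 (minus), chr7:45467070-45467119 (minus) and chr17:29090886-29090957 (plus), in the order shown. The decamer began 186 bases before the start of Mdm2, 185 before that of Ccng1, 201 before that of Bax, and 73 and 51 before the upstream one of the Cdkn1a starts. A decamer was present for 6 of the 9 matched members, Gadd45a and Sesn1 being the others. Each of the 6 had a match in a single window, of 11 windows in all. Of all 32851 promoter windows of this length, 8.36% held a decamer. Sites outside the window were not searched. A pair of decamers at most 13 bases apart, as in Cdkn1a, was found in 0.0731% of windows. Only exact matches to the consensus were marked and counted. In Cdkn1a the bases tgacatgttc, directly after the downstream decamer, come close to the consensus but were left in lower case. The marked pair is therefore not shown to be the site that p53 binds in this gene. The 2 members that were higher in HO, Btg2 and Gadd45g, had no decamer in the window. In their stretches capitals mark CCAAT (the CCAAT box), GGGCGG (the GC box) and TATAAA (the TATA box), all searched on both strands.
Btg2: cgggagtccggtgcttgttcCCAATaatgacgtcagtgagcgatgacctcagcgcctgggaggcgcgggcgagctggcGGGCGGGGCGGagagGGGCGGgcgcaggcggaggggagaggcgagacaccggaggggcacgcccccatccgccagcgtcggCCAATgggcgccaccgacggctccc
Gadd45g: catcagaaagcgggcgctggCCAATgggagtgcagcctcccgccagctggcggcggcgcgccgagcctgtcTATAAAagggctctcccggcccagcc

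They lie at chr1:134079165-134079348 (minus strand) and chr13:51846577-51846673 (plus). TATAAA began 27 bases before the start of Gadd45g and 46 before that of Gadd45b, and it was present in 13.6% of all windows. CCAAT was present in 37.4% of windows and GGGCGG, of which 2 copies overlap in Btg2, in 35.7%. These matches describe letters only, and no binding was measured.

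The libraries were alike in size. Relative depth, read from the spacing of low FPKM values, was 19100000 to 24600000 read equivalents, and summed FPKM was 495570 to 518218. The median FPKM was lower in HO (0.7422 to 0.7884) than in WT (0.8525 to 0.8789), and the median log2 change of all genes tested was -0.09, so a small negative change is common. On the second principal component (19.7% of variance) HO replicate 1 stood apart at -33.5, the others lying between 1.23 and 17.2, and on the first (44.8%) WT replicate 3 was the WT library nearest to HO at -10.1. Hepatocyte markers were at high levels in all libraries, with Alb at 25339 FPKM or more. The labels do not say whether each library is from its own animal, so p-values here measure only the spread among samples, which may be technical.

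None of the 10 members passed the test over all genes (limma with Benjamini-Hochberg adjustment at 0.05), neither higher nor lower. Over all 13250 genes 0.325% were called higher and 0.815% lower. At an unadjusted p under 0.05, Gadd45g and Btg2 were higher and Mdm2, Bax and Ccng1 lower, which is 2 and 3 of 10 members against 5.01% and 16.5% of all genes. In these same 5 genes the ranges of the groups did not overlap. Such separation was found for 6.42% of all genes upward and 21.4% downward. The median log2 change of the members was -0.30, with 6 negative and 4 positive, against 64.6% negative among all genes. Under median-of-ratios scaling or quantile normalization 2 members instead of 3 were lower at an unadjusted p under 0.05. With each library weighted by its quality (array weights), Gadd45g and Btg2 passed (limma adjusted p = 0.0406 and 0.0459), and without HO replicate 2 Gadd45g alone did (limma adjusted p = 0.0368).

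**Figure D1:**
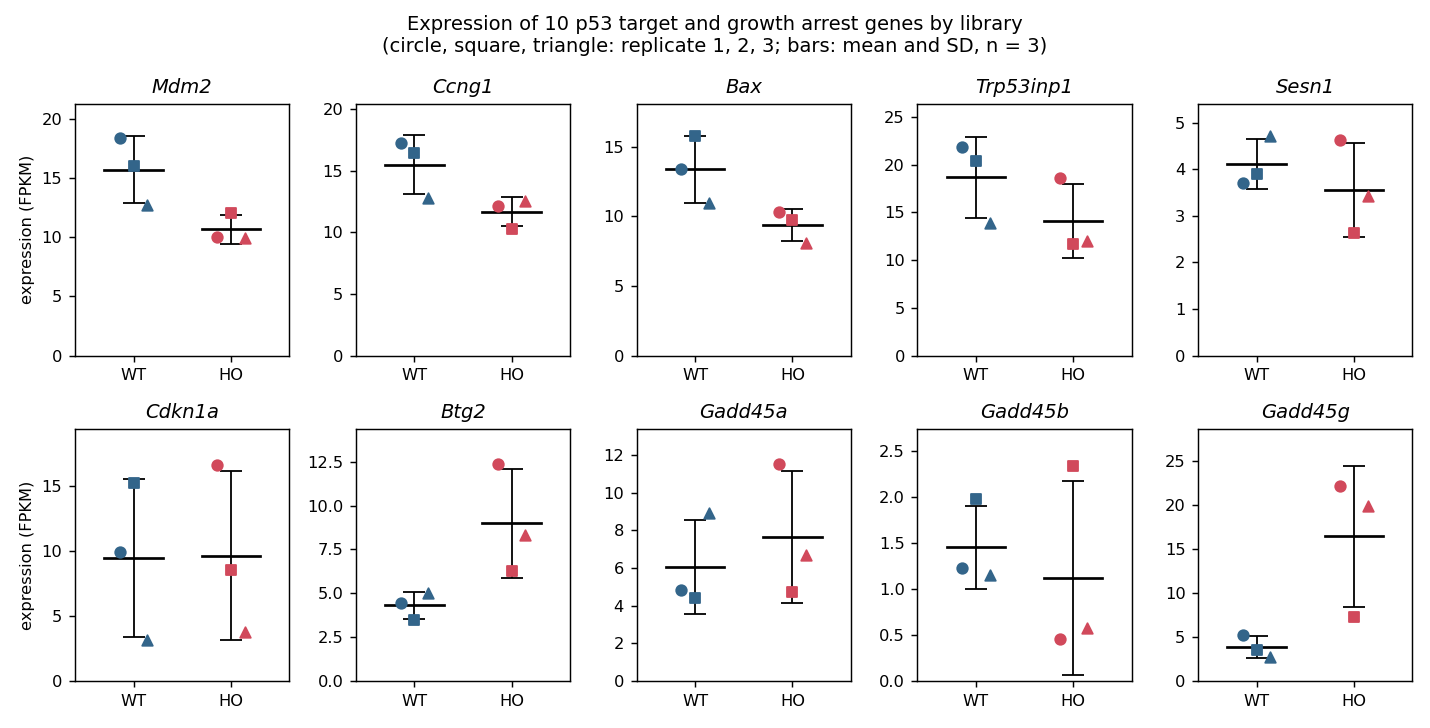
Expression in FPKM of each of the 10 genes in the 3 WT (blue) and 3 HO (red) libraries, with mean and SD (n = 3). The HO values of Mdm2, Ccng1 and Bax lie below and those of Btg2 and Gadd45g above all WT values, and Cdkn1a spreads from 3.149 to 16.67 FPKM with no shift between the groups.

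In WT livers the most abundant member was Trp53inp1 (18.7 ± 4.25 FPKM, mean ± SD, n = 3, as for all means below), followed by Mdm2, Ccng1, Bax, Cdkn1a, Gadd45a, Btg2, Sesn1, Gadd45g and Gadd45b (1.45 ± 0.455). Each WT neighbour in this order overlapped the next in its values, except that Gadd45g lay above Gadd45b. In HO livers Gadd45g came first (16.5 ± 8.05), ahead of Trp53inp1, Ccng1, Mdm2, Cdkn1a, Bax, Btg2, Gadd45a, Sesn1 and Gadd45b. Neighbours overlapped there too, except that Sesn1 lay below Gadd45a and above Gadd45b. Gadd45g was thus ninth of the members in WT and first in HO by its mean. The change of place was not tested.

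Mdm2, the ubiquitin ligase that marks p53 for degradation and is itself switched on by p53, was measured at 18.39, 16 and 12.75 FPKM in WT replicates 1, 2 and 3 and at 10.01, 12.02 and 9.916 in HO replicates 1, 2 and 3. The groups did not overlap, but WT replicate 3 was only 0.730 FPKM above the highest HO library. The ratio of the HO to the WT mean was 0.678. The fitted log2 change was -0.53 ± 0.15 (SE, limma adjusted p = 0.116). The gene (ENSMUSG00000020184.15) lies on chromosome 10 from 117688875 to 117710758 (mm10), on the minus strand.

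Ccng1 encodes cyclin G1, which brings a phosphatase to MDM2 and is among the genes most reliably induced by p53. Its WT values were 17.23, 16.44 and 12.77 FPKM and its HO values 12.15, 10.30 and 12.51. The groups were separated by 0.253 FPKM, again because WT replicate 3 was the lowest WT library. The log2 change was -0.39 ± 0.14 (SE, limma adjusted p = 0.178), and the ratio of means 0.753. Ccng1 (ENSMUSG00000020326.7) is on chromosome 11 from 40748552 to 40755311, on the minus strand.

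Bax, which forms pores in the outer mitochondrial membrane during apoptosis, was at 13.37, 15.75 and 10.94 FPKM in WT and at 10.28, 9.760 and 8.096 in HO. All HO values were below all WT values, by 0.660 FPKM at the nearest. The fitted change on the log2 scale was -0.48 ± 0.16 (SE, limma adjusted p = 0.148), and the HO mean was 0.702 of the WT mean. Bax (ENSMUSG00000003873.11, chromosome 7, 45461697 to 45466898) shares 192 exonic bases, 12.2% of its own, with the annotated gene Gm45808 on the same strand, so part of its reads cannot be assigned with certainty.

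Trp53inp1, a nuclear protein that supports p53 activity and takes part in autophagy, had WT values of 21.82, 20.39 and 13.85 FPKM and HO values of 18.62, 11.73 and 11.96. The groups overlapped, since HO replicate 1 exceeded WT replicate 3. The log2 change was -0.40 ± 0.23 (SE, limma adjusted p = 0.364), and -0.61 without HO replicate 1 (limma adjusted p = 0.145, range over all alternatives 0.117 to 0.654). Trp53inp1 (ENSMUSG00000028211.11) lies on chromosome 4 from 11156431 to 11174379.

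Sesn1, a sestrin that restrains the growth kinase complex mTORC1, was lower in level than the genes above. It was at 3.699, 3.911 and 4.724 FPKM in WT and at 4.624, 2.630 and 3.428 in HO, with overlap between the groups. The fitted change on the log2 scale was -0.21 ± 0.20 (SE, limma adjusted p = 0.585). Its location is chromosome 10, 41809935 to 41908424 (ENSMUSG00000038332.13).

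**Figure D2:**
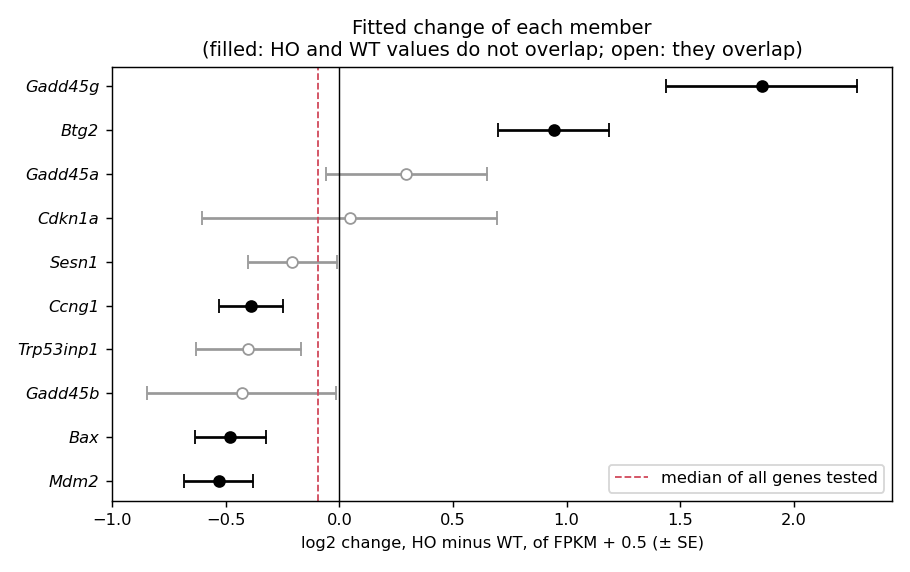
Fitted log2 change of FPKM + 0.5 (HO minus WT, horizontal axis) with its SE for each of the 10 genes, ordered by size, with the median of all genes tested as a dashed line at -0.09. Filled points are the 5 genes whose groups did not overlap, from -0.53 for Mdm2 to 1.86 for Gadd45g, and the widest error bar is that of Cdkn1a.

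Cdkn1a encodes p21, the inhibitor of cyclin-dependent kinases through which p53 stops the cell cycle. It varied more within the groups than between them. Its WT values were 9.964, 15.30 and 3.149 FPKM and its HO values 16.67, 8.575 and 3.748. Replicate 3 was the lowest library in both groups, and the highest value of all, in HO replicate 1, was 5.29 times the lowest, in WT replicate 3. The group means were 9.47 ± 6.09 and 9.67 ± 6.53, and the log2 change 0.04 ± 0.65 (SE, limma adjusted p = 0.979). The change was negative once WT replicate 3 (-0.56) or HO replicate 1 (-0.44) was left out, and under array weights (-0.57). Counting error is small beside this spread, since the values correspond to about 245 to 1277 read equivalents. Cdkn1a (ENSMUSG00000023067.14) lies on chromosome 17 from 29090976 to 29100727 and shares 273 exonic bases, 7.7% of its own, with AC167363.2 on the opposite strand.

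Among 11569 other genes averaging at least 1 FPKM, the 5 with the profile most like that of Cdkn1a over the 6 libraries were Usf3, Vkorc1l1, Elovl3, Gm11652 and Rgs5. Likeness was measured as the mean absolute difference of the centred log2(FPKM + 0.5) values, which was 0.262 for Usf3 and 0.34 for Rgs5. Elovl3, a fatty acid elongase whose liver RNA is known to swing over the day, was at 129.98, 126.47 and 52.97 FPKM in WT and at 163.56, 86.56 and 60.19 in HO. Like Cdkn1a, for likeness to which it was picked, it was lowest in replicate 3 of each group. Vkorc1l1, a relative of the vitamin K epoxide reductase, was at 4.56, 5.65 and 2.16 FPKM in WT and at 5.07, 4.49 and 1.41 in HO. None of the other members was among the 5.

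Btg2, an antiproliferative protein that recruits the deadenylase complex to messenger RNAs, was at 4.419, 3.498 and 4.994 FPKM in WT and at 12.38, 6.252 and 8.336 in HO. Every HO library exceeded every WT library, HO replicate 1 by most and HO replicate 2 by least. The HO mean was 2.09 times the WT mean. The log2 change was 0.94 ± 0.24 (SE, limma adjusted p = 0.0968), and 0.70 without HO replicate 1 (limma adjusted p = 0.105, range over all alternatives 0.0459 to 0.271). Btg2 (ENSMUSG00000020423.6) lies on chromosome 1 from 134075170 to 134079120, on the minus strand.

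Gadd45g had the largest change and the smallest p of the members. Its WT values were 5.267, 3.540 and 2.749 FPKM and its HO values 22.23, 7.280 and 19.92. The groups did not overlap, and HO replicate 2 was far below the other HO libraries. The HO mean was 4.28 times the WT mean, and the log2 change was 1.86 ± 0.42 (SE, limma adjusted p = 0.0803, range over all alternatives 0.0368 to 0.232). It was 472nd among all 13250 genes by p. The change was 2.35 without HO replicate 2 and 1.58 without HO replicate 1. Gadd45g (ENSMUSG00000021453.2) is on chromosome 13 from 51846678 to 51848468, the chromosome that also holds Lncenc1, on the plus strand.

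Gadd45a, the member of this family most often described as a p53 target, did not separate the groups. It was at 4.841, 4.388 and 8.953 FPKM in WT and at 11.56, 4.746 and 6.702 in HO. WT replicate 3 was higher than 2 of the HO libraries. The fitted change on the log2 scale was 0.29 ± 0.36 (SE, limma adjusted p = 0.673), and -0.03 without HO replicate 1. Gadd45a (chromosome 6, 67035096 to 67037457, ENSMUSG00000036390.8) shares 337 exonic bases, 19.1% of its own, with E230016M11Rik on the opposite strand. The sources used here do not say whether strand was used in counting, so reads of the pair may be mixed.

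Gadd45b, the family member best known as a target of NF-kB and of TGF-beta, was the rarest member. It was at 1.222, 1.974 and 1.156 FPKM in WT and at 0.4510, 2.330 and 0.5745 in HO. HO replicate 2 had the highest value of all libraries, and the other HO libraries the lowest. The log2 change was -0.43 ± 0.42 (SE, limma adjusted p = 0.592). Its values rest on about 14 to 91 read equivalents, against 71 to 528 for Gadd45g. The gene (ENSMUSG00000015312.9) lies on chromosome 10 from 80930073 to 80932204.

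Summed over the family, the GADD45 genes came to 11.33, 9.902 and 12.86 FPKM in WT and to 34.24, 14.36 and 27.20 in HO. The groups did not overlap in this sum. Gadd45g made up 46.5%, 35.8% and 21.4% of it in WT replicates 1 to 3 and 64.9%, 50.7% and 73.2% in HO replicates 1 to 3. The share of Gadd45a was 42.7%, 44.3% and 69.6% in WT and 33.8%, 33.1% and 24.6% in HO. Gadd45g was the largest part in every HO library, and in WT only in replicate 1. HO replicate 2 differed from the other HO libraries in the whole family, with less Gadd45a and Gadd45g and more Gadd45b.

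**Figure D3:**
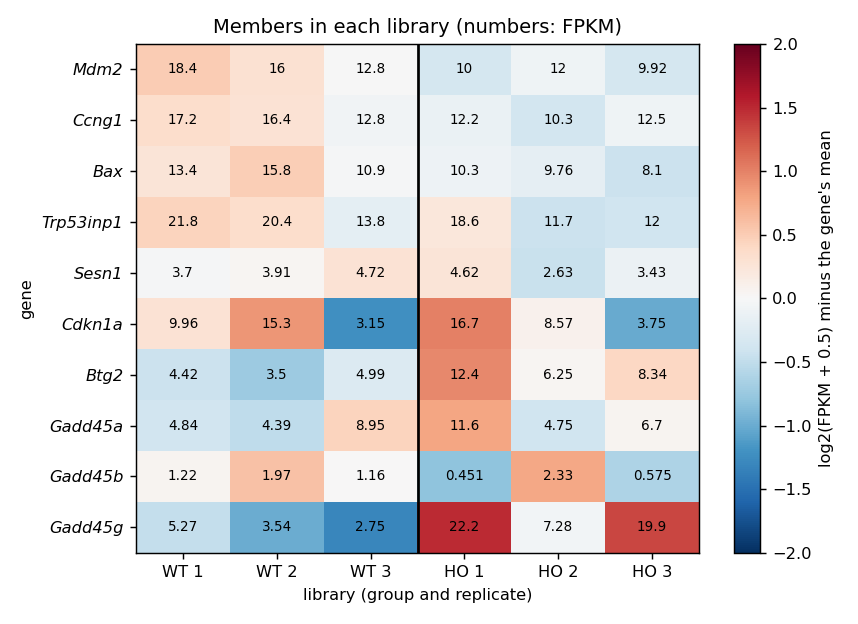
Members (rows) by library (columns), coloured by log2(FPKM + 0.5) minus the gene's own mean, with the FPKM printed in each cell. Gadd45g and Btg2 are above their mean in HO replicates 1 and 3, Cdkn1a is lowest in replicate 3 of both groups, and Mdm2, Ccng1 and Bax are highest in WT replicates 1 and 2.

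Single libraries shaped these values. WT replicate 3 held the lowest WT value for 7 of the 10 members, among them Mdm2, Ccng1, Bax, Trp53inp1 and Cdkn1a, while it was lowest for 34.9% of all genes. HO replicate 1 held the highest HO value for 7 of 10, among them Cdkn1a, Btg2, Trp53inp1, Gadd45a and Gadd45g, against 37.5% of all genes. Without WT replicate 3, the log2 changes of Mdm2, Ccng1, Bax and Trp53inp1 were -0.67, -0.52, -0.61 and -0.60, and the median of the members was -0.53 instead of -0.30. Without HO replicate 1 the median was -0.40, and without HO replicate 2 it was -0.16. Of the 10 members, 8 kept their sign under all 16 alternatives tried, the exceptions being Cdkn1a and Gadd45a. Several of the 16 could not change a sign. The other filters, eBayes robust or without trend, and the replicate block leave the fitted change as it was. For the 5 members whose groups did not overlap, leaving out a library could not turn the sign.

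**Figure D4:**
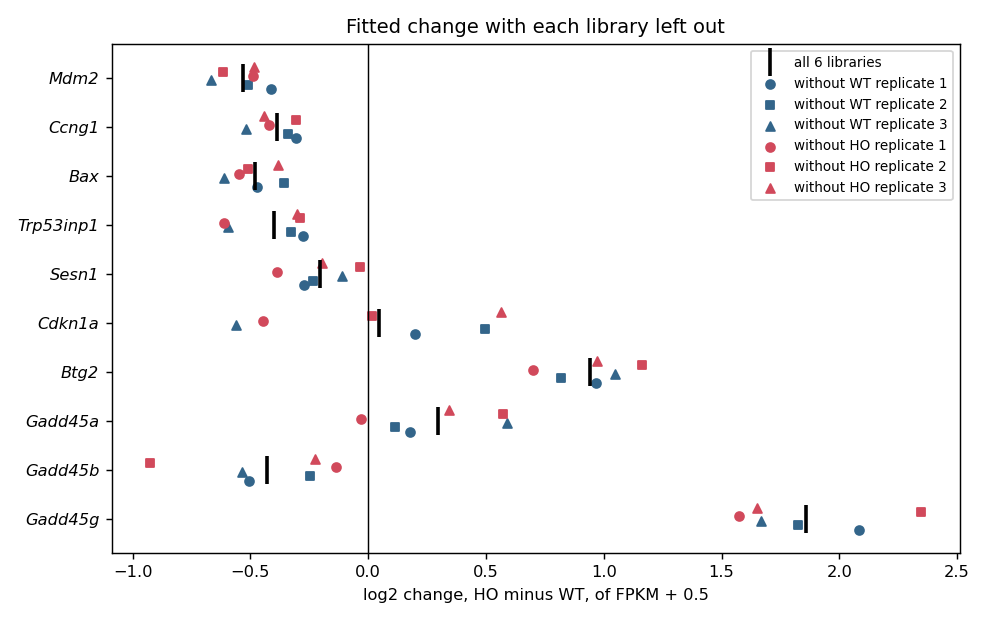
Fitted log2 change (HO minus WT) of each member with all 6 libraries (black bar) and with each library left out in turn (blue, a WT library; red, an HO library; shapes give the replicate). Cdkn1a moves from -0.56 without WT replicate 3 to 0.56 without HO replicate 3, while Mdm2, Ccng1 and Bax stay below 0 and Btg2 and Gadd45g above it.

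The RNA of p53 itself overlapped between the groups. In a list of p53 and its regulators, 3 of 15 measured genes were lower in every HO library than in any WT library. Such separation downward was found for 21.4% of all genes, and none of the 3 passed the test. Trp53 was at 8.14, 7.81 and 9.22 FPKM in WT and at 7.24, 11.4 and 10.3 in HO. Its relative Trp73 was listed at 0 in all libraries and Trp63 stayed at or under 0.0135 FPKM. Of 15 measured genes of this list none passed over all genes (limma), 3 had an unadjusted p under 0.05, all lower in HO, and the median log2 change was -0.0013. These were the checkpoint kinase Chek2, Mdm4, the partner of MDM2 that masks p53's activation domain, and the kinase Hipk2. Chek2, at a low level, was at 1.106 ± 0.151 FPKM in WT against 0.519 ± 0.126 in HO (log2 change -0.66 ± 0.16 (SE), limma adjusted p = 0.0917). Mdm4 was at 11.02 ± 0.876 FPKM in WT against 8.48 ± 0.751 in HO (log2 change -0.36 ± 0.11 (SE), limma adjusted p = 0.130). Hipk2 was at 3.95 ± 0.271 and 2.88 ± 0.514 (limma adjusted p = 0.174).

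Among 33 measured genes of a list of other p53 targets, none passed over all genes (limma). At an unadjusted p under 0.05, 1 was higher and 6 (18.2%) were lower, against 5.01% and 16.5% of all genes. The change was negative in 24 (72.7%, against 64.6% of all genes), and the median was -0.16. Perp, a desmosomal protein of p53-dependent apoptosis, was at 68.1, 65.6 and 63.1 FPKM in WT and at 49.3, 43.7 and 49.3 in HO (log2 change -0.46 ± 0.09 (SE), limma adjusted p = 0.0571). Its groups were far apart for the spread within them, and it came nearest to the threshold. Gdf15, a stress hormone that curbs appetite, was at 12.9, 12.0 and 8.53 FPKM in WT and at 2.74, 6.12 and 2.26 in HO (log2 change -1.56 ± 0.33 (SE), limma adjusted p = 0.0747). Ephx1, the microsomal epoxide hydrolase that is also regulated by xenobiotic receptors, was at 262 ± 46.3 and 155 ± 20.2 FPKM (limma adjusted p = 0.0747). All 3 were lower in every HO library than in any WT library. Such separation downward was found for 7 of the 33 genes, and for 21.4% of all genes. With array weights 4 genes of this list passed as lower, and without WT replicate 3 or HO replicate 2, 1 did.

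Other growth arrest genes and inhibitors of cyclin-dependent kinases included 3 that passed the test. Gas2, a growth arrest protein of the actin cytoskeleton, fell from 26.3 ± 0.464 FPKM in WT to 14.6 ± 1.04 in HO (log2 change -0.83 ± 0.09 (SE), limma adjusted p = 0.0228). Cdkn1c, which encodes the p21 relative p57, fell from 1.59 ± 0.362 to 0.492 ± 0.0862 (log2 change -1.06 ± 0.17 (SE), limma adjusted p = 0.0484). Btg3, a relative of Btg2, rose from 1.01 ± 0.271 to 2.71 ± 0.234 (log2 change 1.10 ± 0.17 (SE), limma adjusted p = 0.0410). Of the 17 measured genes 1 thus rose and 2 fell, and the median was -0.34. No gene of this list was called when any one of WT replicates 1 and 2 and HO replicates 2 and 3 was left out. Without HO replicate 1, 1 was called as lower and none as higher, and without WT replicate 3, 1 in each direction. Under either other scaling 1 was called as lower, and with a pseudocount of 0.1 or no filter on low values 1 as lower and 0 as higher.

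Among cell cycle genes, Mki67 and Top2a were at low levels, at or under 0.379 and 0.684 FPKM. Levels differed widely within the list, with Cdk4 at 82.9 ± 2.33 FPKM in WT and 73.9 ± 4.30 in HO. Of 24 measured cell cycle genes none passed over all genes (limma). At an unadjusted p under 0.05, 2 were higher and 6 (25.0%) lower, against 5.01% and 16.5% of all genes. The change was negative in 21 (87.5%, against 64.6% of all genes), with a median of -0.21. Cdk6, which drives the exit from rest, was at 3.39 ± 0.226 FPKM in WT against 1.85 ± 0.355 in HO (limma adjusted p = 0.0664). The replication helicase subunit Mcm2 was at 1.74 ± 0.328 and 0.876 ± 0.191 (limma adjusted p = 0.0916), and the kinase Cdk2 at 4.43 ± 0.787 and 2.64 ± 0.496 (limma adjusted p = 0.107). These 3 genes were lower in each HO library than in any WT library. Such separation was found for 10 of the 24 genes downward and 1 upward, against 21.4% and 6.42% of all genes. The 2 higher ones were Ccne1 and Rrm2. Ccne1, at a low level, was at 0.357 ± 0.229 FPKM in WT against 0.825 ± 0.0919 in HO (limma adjusted p = 0.148). Rrm2 was at 3.26 ± 0.869 and 5.37 ± 1.85, with overlap (limma adjusted p = 0.222).

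Relatives of Bax in the BCL2 family had a median change of 0.13 over 11 measured genes, and none passed (limma). At an unadjusted p under 0.05, 3 were higher and 2 (18.2%) lower, against 5.01% and 16.5% of all genes. Bcl2l1, which encodes the survival protein BCL-XL, was at 12.9, 13.8 and 13.7 FPKM in WT and at 25.6, 17.9 and 16.1 in HO (limma adjusted p = 0.146). Bok was at 6.34 ± 0.765 and 9.04 ± 1.55 (limma adjusted p = 0.148) and Bik at 3.16 ± 0.955 and 5.54 ± 1.29 (limma adjusted p = 0.14). The direction of these 3 was thus opposite to that of Bax. The 2 lower ones went the same way as Bax. Bcl2l11 was at 1.98 ± 0.0460 FPKM in WT against 1.48 ± 0.183 in HO (limma adjusted p = 0.208). Bad was at 8.40 ± 1.26 and 6.48 ± 0.887, with overlap (limma adjusted p = 0.230). The p53 target Bbc3 (PUMA) was at 5.39, 5.33 and 4.99 FPKM in WT and at 6.81, 3.52 and 4.73 in HO, with overlap.

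Partners of the sestrins and of the GADD45 proteins held no called gene. Of 21 measured genes around the sestrins, mTORC1 and AMPK, none passed (limma, 3 lower and 0 higher at an unadjusted p under 0.05), with a median of -0.09. Sesn3 was at 4.35 ± 0.488 FPKM in WT against 3.04 ± 0.713 in HO (limma adjusted p = 0.188), and Prkaa2, a catalytic subunit of AMPK, at 9.01 ± 1.28 and 7.06 ± 0.765 (limma adjusted p = 0.222). Ddit4, another inhibitor of mTORC1, was at 7.43 ± 3.64 and 3.63 ± 1.17, with overlap (limma adjusted p = 0.236). Of 11 measured p38 and JNK pathway kinases none passed (limma, 1 higher and 0 lower at an unadjusted p under 0.05), with a median of 0.18. Map3k4, the kinase that GADD45 proteins bind and activate, was at 4.35 ± 0.385 and 3.51 ± 0.287 (limma adjusted p = 0.242), Map3k5 at 8.12 ± 2.25 and 14.9 ± 1.83 (limma adjusted p = 0.0870) and Mapk14, p38 alpha, at 16.4 ± 5.61 and 25.4 ± 6.97 (limma adjusted p = 0.25).

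**Figure D5:**
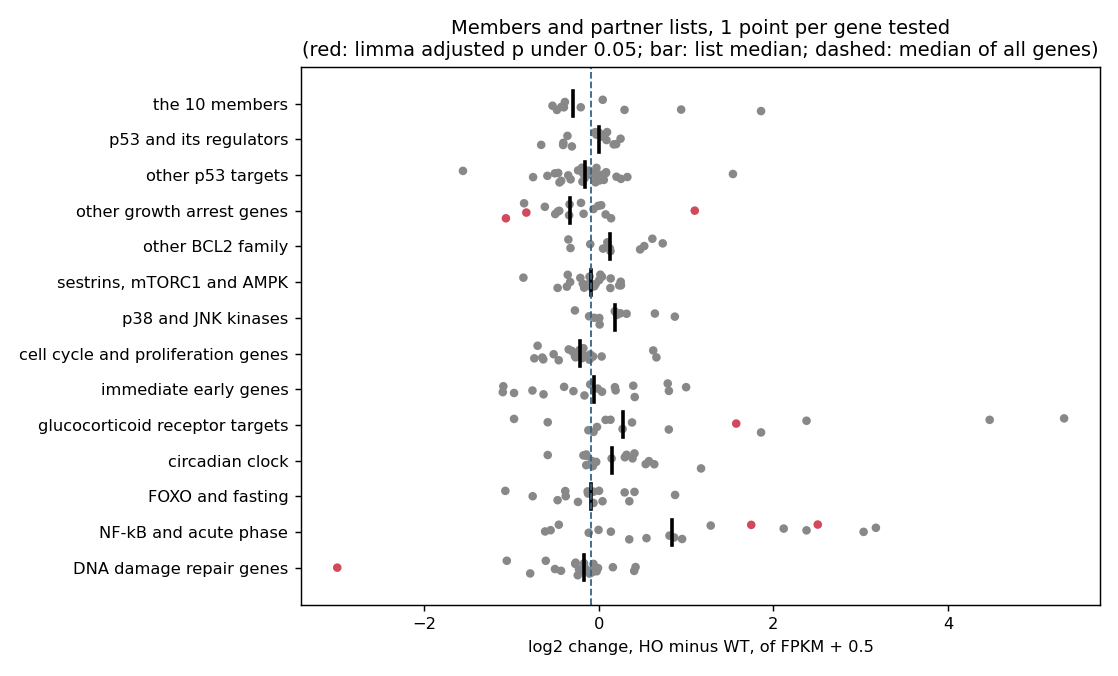
Log2 change (HO minus WT) of every tested gene of the members and of 13 lists of partner genes, with list medians as bars and the median of all genes as a dashed line. Genes past the threshold (red) are seen among other growth arrest genes, glucocorticoid receptor targets, acute phase genes and DNA repair genes, and none among the members.

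Btg2, Cdkn1a and the GADD45 genes also answer to fast signals, and lists of such signals were set beside them. Immediate early genes were mixed in direction: of 18 measured none passed (limma, 2 higher and 4 lower at an unadjusted p under 0.05), 8 changes were positive and 10 negative, and the median was -0.06. The 2 higher ones were the AP-1 subunits Junb, at 12.6 ± 3.98 FPKM in WT against 21.97 ± 4.06 in HO (limma adjusted p = 0.113), and Fosl2, at 2.21 ± 0.202 and 3.10 ± 0.121 (limma adjusted p = 0.115). The 3 with the smallest p were lower. Zfp36, which destabilises cytokine messenger RNAs, was at 40.4, 27.8 and 34.6 FPKM in WT and at 15.0, 19.5 and 12.8 in HO (limma adjusted p = 0.0509). The AP-1 subunit Jun was at 9.93 ± 2.73 and 4.31 ± 0.844 (limma adjusted p = 0.0727), and the ERK phosphatase Dusp6 at 17.8 ± 1.07 and 11.4 ± 2.38 (limma adjusted p = 0.0932). With a pseudocount of 1, with a filter at a mean of 1 FPKM or with robust eBayes, 1 of these genes was called as lower. Without WT replicate 3, 2 were called as lower and 1 as higher.

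Of 15 glucocorticoid receptor targets, a list that also holds Gadd45g, Fkbp5 passed as higher and none as lower (limma), with a median of 0.27. At an unadjusted p under 0.05, 6 were higher and 2 (13.3%) lower, against 5.01% and 16.5% of all genes. Fkbp5, a chaperone of the receptor, was at 9.99, 18.2 and 17.7 FPKM in WT and at 39.8, 53.2 and 43.2 in HO (log2 change 1.57 ± 0.24 (SE), limma adjusted p = 0.0372). Per1, in this list and in that of the clock, was lower in HO, at 8.61 ± 1.63 and 5.53 ± 0.579 FPKM (limma adjusted p = 0.0972). No gene was called as higher when WT replicate 1 or 2 or HO replicate 3 was left out, and 3 were without HO replicate 1. With all libraries the call was also lost with no filter on low values and with eBayes without trend. Of 17 clock genes none passed (limma, 0 higher and 1 lower at an unadjusted p under 0.05), with a median of 0.15. Per2 was at 3.31, 4.38 and 9.25 FPKM in WT and at 7.81, 7.78 and 8.21 in HO (limma adjusted p = 0.344), so that WT replicate 3 was above all HO libraries. Without WT replicate 3, 3 clock genes passed as higher. Bhlhe40 was at 36.2 ± 4.79 and 45.4 ± 7.83 (limma adjusted p = 0.278).

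Of 16 FOXO and fasting response genes none passed (limma, 1 higher and 4 lower at an unadjusted p under 0.05). Fgf21, a hormone of the fasted liver, was at 7.85, 9.63 and 7.58 FPKM in WT and at 2.95, 5.49 and 3.07 in HO (limma adjusted p = 0.0747). Irs2, an insulin receptor substrate, was at 2.41 ± 0.784 and 4.72 ± 0.297 (limma adjusted p = 0.0806). Without WT replicate 3, 1 of these genes was called as higher, and without HO replicate 2, 1 as lower. Of 18 genes of NF-kB feedback and the acute phase, Socs3 and Il1r1 passed as higher and none as lower, with a median of 0.84. At an unadjusted p under 0.05 (limma), 7 were higher and 2 lower, and 5 of the 18 changes were negative. Of the 2 lower ones, Nfkbia was at 28.1 ± 1.82 FPKM in WT against 18.3 ± 3.17 in HO (limma adjusted p = 0.0765). Tnfaip3, at a low level, was at 0.758 ± 0.163 and 0.414 ± 0.0868 (limma adjusted p = 0.1845). Socs3, the feedback inhibitor of cytokine signalling through STAT3, was at 2.43, 1.97 and 3.68 FPKM in WT and at 24.3, 11.4 and 18.4 in HO (log2 change 2.51 ± 0.30 (SE), limma adjusted p = 0.0261). Its HO values had the same order as those of Gadd45g and Btg2, with replicate 1 highest and replicate 2 lowest. Over all genes HO replicate 1 was highest of its group in 37.5% and HO replicate 2 lowest in 36.5%. A link between these genes was not tested. The acute phase gene Saa1 had another order, at 111 FPKM in HO replicate 1 against 2525 and 2630 in HO replicates 2 and 3. Il1r1, the interleukin 1 receptor, went from 10.2 ± 2.74 to 35.9 ± 12.6 (limma adjusted p = 0.0496), and Cxcl1 was at 10.9 ± 5.22 and 45.2 ± 9.47 (limma adjusted p = 0.0541). In this list 7 genes were called as higher when HO replicate 1 was left out, 1 when WT replicate 3 or HO replicate 2 was, and 0 when any one of the other libraries was. With all libraries the number was 0 with no filter on low values, and 1 with a pseudocount of 0.1 or with eBayes without trend.

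DNA repair genes had a negative change in 20 of 23 measured (87.0%, against 64.6% of all genes), with a median of -0.17. At an unadjusted p under 0.05 (limma), 0 were higher and 7 (30.4%) lower, against 5.01% and 16.5% of all genes. Mgmt, which repairs alkylated guanine, was at 7.70 ± 1.39 FPKM in WT against 3.46 ± 0.798 in HO (limma adjusted p = 0.0573). Brca2, a mediator of homologous recombination, was at 3.09 ± 0.242 and 1.599 ± 0.345 (limma adjusted p = 0.0681). Both were lower in each HO library than in any WT library. Such separation was found for 10 of the 23 genes downward and 1 upward, against 21.4% and 6.42% of all genes. The 1 upward was Brca1, at a low level, with 0.448 ± 0.190 FPKM in WT against 0.756 ± 0.129 in HO (limma adjusted p = 0.276).

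Markers of other liver cells were summed by cell type, and their part in the members' values was not tested. The sums of stellate, Kupffer, neutrophil and endothelial markers overlapped between the groups. Those of erythroid, adipocyte, lymphocyte and bile duct markers did not. In bulk tissue fewer cells of a type and less RNA per cell cannot be told apart. The summed level of 7 stellate cell markers was 25.5 to 40.7 FPKM in WT and 16.2 to 28.2 in HO, and that of 9 Kupffer cell markers 99.4 to 163.1 and 88.7 to 105.6. The 5 erythroid markers summed to 644.4 to 667.2 in WT and to 319.2 to 547.5 in HO. Adipocyte markers summed to 44.0 to 56.2 and 0.986 to 12.2 FPKM, all of it Cfd, since the defining genes Adipoq and Plin1 were listed at 0 in all libraries. The 7 neutrophil markers stayed at 1.952 to 5.003 FPKM in WT and 3.14 to 8.36 in HO with Ly6g listed at 0, and the 9 lymphocyte markers at 1.67 to 1.73 and 1.76 to 2.20. The 6 bile duct markers summed to 24.2 to 27.6 and 20.07 to 22.99, the 7 endothelial ones to 43.3 to 52.1 and 40.2 to 45.0, and the 6 hepatocyte markers to 44540 to 47300 and 39130 to 43360. The bile duct sum is mostly Spp1 (21.5 ± 1.66 FPKM in WT, 18.0 ± 1.24 in HO), and Krt19, Epcam and Sox9 overlapped. The hepatocyte sum is mostly Alb, which was lower in every HO library than in any WT library, as was Ttr. Cps1, Hnf4a and Apoa1 were higher in every HO library, and Tat overlapped. Over all genes such separation was found for 6.42% upward and 21.4% downward. Of the markers the hepatocyte enzyme Cps1 alone passed the test, with a log2 change of 0.86 (limma adjusted p = 0.0422).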

How the data were processed

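Liver RNA was extracted with Trizol and made into strand-preserving Illumina libraries, per the labels' protocols. The authors deposited FPKM values per gene and library. HISAT2, HTSeq, DESeq2, StringTie and mm10 are named per the submitters' processing notes, with no version; the tool behind the FPKM values is not stated there. Columns were matched to samples by group and replicate number. All 24034 identifiers were in GENCODE M21, the source of positions and exonic lengths, and 24012 had the same symbol. No libraries held identical values.

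FPKM is not a count. With 1 read taken as the most frequent value of FPKM times exonic length, 37.5% to 40.7% of low values were whole multiples within 0.02 reads, so counts were not recovered and read equivalents are approximate. Genes averaging at least 0.5 FPKM were kept. Their log2(FPKM + 0.5) values entered limma 3.58.1 (R 4.3.3, eBayes with trend, 2-sided, no block, Benjamini-Hochberg over 13250 genes at 0.05). This scale understates the change of low genes. Lists are described by counts and medians, with no test. The fit was tested on simulated data. The members, lists and tests were chosen with earlier results of these data known. Named partner genes are those past the threshold and up to 3 per list with the smallest p and a mean of 1 FPKM or more. Trp53, Trp63, Trp73, Mki67, Top2a, Bbc3, Saa1, Chek2, Junb, Fosl2, Nfkbia, Tnfaip3 and the markers named were added after their values were seen. So were Cdk4, Ccne1, Rrm2, Brca1, Bcl2l11, Bad and Dusp1. In all 16 alternatives were run: a pseudocount of 1 or of 0.1, a filter at 1 FPKM or none, quantile normalization, median-of-ratios scaling, eBayes robust or without the trend, array weights (statmod 1.5.0), a replicate block, and each library left out in turn. Python 3.11.15, pandas 2.3.3 and matplotlib 3.10.9 were used. One result among the DNA repair genes is not reported here.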

Additional observations from a re-analysis of the deposited data

How the results depend on the processing

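Under 14 of the 16 alternatives no member passed the threshold. With array weights 2 members passed as higher, and with a library left out the number called as higher ranged from 0 to 1 and the number called as lower stayed at 0. The median log2 change of the members was between -0.53 and -0.16 with a library left out, and -0.20 with either scaling. The change of Cdkn1a turned to -0.57 with array weights, -0.56 without WT replicate 3 and -0.44 without HO replicate 1, and with a library left out it ranged from -0.56 to 0.56. That of Gadd45a turned to -0.029 without HO replicate 1, in a range of -0.029 to 0.59. The cause was not tested. Over all genes, 43 were called higher and 108 lower, against 56 and 72 with quantile normalization, 67 and 66 under median-of-ratios scaling, 23 and 77 with a pseudocount of 0.1, 7 and 33 with no filter, 18 and 59 without a trend and 249 and 692 with array weights. With a library left out the counts ran from 2 to 91 higher and from 4 to 171 lower. With the replicate block 0 members were called higher and 0 lower, the median was -0.30, and 10 genes were higher and 15 lower. The block also left 0 calls among other growth arrest genes and among glucocorticoid receptor targets. Deviations of same-numbered libraries correlated at 0.0661, -0.0281 and 0.0147 across genes, and those of differently numbered ones at -0.126 to 0.128. With 3 libraries per group these values cannot decide whether the numbers pair samples. With the block the SE of Cdkn1a was 0.293 instead of 0.648. Gadd45b, at 14 to 91 read equivalents, is the member most limited by depth.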
